A study of Mus musculus with 2 samples.

Results

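The megakaryocyte and platelet genes described here are 33 mouse genes taken by symbol from a written list, not by their measured levels. All 33 were found among the 43346 mouse genes of the deposited tables. They were measured by total RNA-seq in liver of healthy B6NCrl embryos at 11.5 days, in 1 group of 2 libraries that the labels number as biological replicates. Replicate 1 came from a pool of 109 embryos, and replicate 2 came from another pool, of a size that the sources used here do not state. Each pool held male and female embryos, carried no stated mutation or treatment, and gave 10 ng of RNA to its library, to which control RNAs were added. With 1 group there was no treatment, genotype or age to compare, so the levels, the relations between genes and the spread between pools are given, with no test between conditions.

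Megakaryocytes are the large, polyploid marrow and fetal liver cells that shed platelets. They grow under the hormone thrombopoietin, fill alpha granules and dense granules with proteins and small molecules, and extend long microtubule-driven processes that break up into platelets in the blood. Platelets carry receptors for von Willebrand factor, collagen and nucleotides, and signals from these receptors switch the integrin alpha IIb beta 3 to its fibrinogen-binding state. In the mouse embryo, megakaryocytes are found first in the yolk sac and then in the fetal liver.

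Library size was 34344230 and 31477397 estimated counts in replicates 1 and 2, of which 31721267 and 29750192 fell on mouse genes. Control RNAs took 14.6% and 11.1% of the TPM, a unit of transcript abundance that divides by length and gives every library the same total. Every mouse gene thus sits lower on the TPM scale than its share of mouse RNA in both libraries, and slightly more so in replicate 1. Liver markers and blood markers were plentiful in both libraries: the hepatoblast list of 10 genes summed to 11008 and 12235 TPM and the erythroid list of 10 genes to 23086 and 23089 TPM. Among the 12 lists of genes measured beside the 33, that of heart muscle differed most between pools, with a summed level of 311 TPM over 10 genes in replicate 1 and 134 TPM in replicate 2. The 2 libraries were not copies of each other, since their counts differed by more than sampling noise (chi-square of 10.3 per degree of freedom over 16623 genes).

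Transcripts of nearly all of these genes were present. Of the 33 genes, 32 reached a TPM of 1 in both libraries, or 96.97%, beside 56.6% of the 21474 protein-coding genes. The median over the 33 genes was 22.8 TPM in replicate 1 and 20.4 TPM in replicate 2 (21.6 ± 1.72, SD, n = 2), beside a median of 2.82 and 2.87 TPM over all protein-coding genes. By mean level, 3 genes were at 100 TPM or more, 4 between 50 and 100, 19 between 10 and 50, 6 between 1 and 10, and 1 below 1. The genes together held 0.199% and 0.196% of the mouse TPM, or 64455 and 61333 estimated counts. In bulk tissue such as this, fewer cells of a type and less RNA per cell cannot be told apart, so these levels speak for the whole organ and not for a single megakaryocyte.

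**Figure D1:**
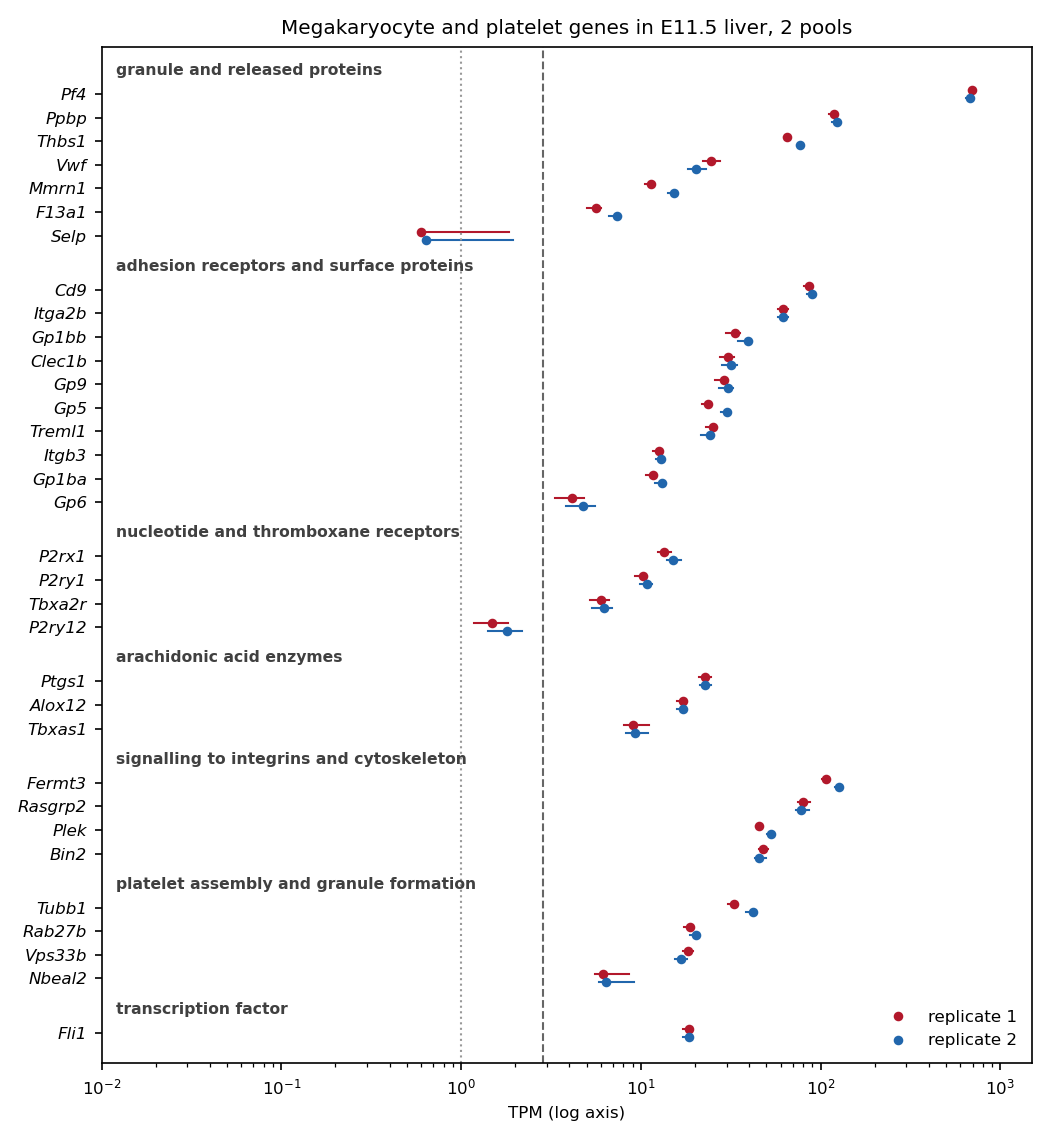
Level of each of the 33 genes in TPM (log axis), grouped by role, with 1 point per pool (red, replicate 1; blue, replicate 2) and a line for the deposited credibility interval. The dotted line marks 1 TPM and the dashed line the median of all protein-coding genes; Pf4 lies far to the right of every other gene, and Selp alone lies left of 1 TPM.

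Granule and released proteins came first and last in the order of levels. Pf4, which encodes platelet factor 4, a heparin-binding chemokine of alpha granules, had 698 TPM in replicate 1 and 674 TPM in replicate 2 (686 ± 17.2, SD, n = 2). Both pools thus put it far above the other genes of the programme, and its TPM exceeded that of 99.3% of protein-coding genes. Ppbp, the precursor of the alpha granule chemokine known as platelet basic protein, followed with 118 and 124 TPM (121 ± 3.72). Pf4 alone made up 41.1% and 38.6% of the TPM of the 33 genes. Between these chemokines the ratio was 5.66-fold in TPM (mean log2 ratio 2.50 ± 0.08), the same order in both pools, and the log2 ratio was 1.49 in estimated counts.

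Pf4 and Ppbp lie next to each other on chromosome 5, with the same orientation and 2371 bases between them. In GRCm38 coordinates Ppbp spans 90768518 to 90770063 and Pf4 spans 90772435 to 90773383. The 250 bases before each RefSeq start (GRCm38.p6, chr5:90772185-90772434 for Pf4 and chr5:90768268-90768517 for Ppbp, plus strand) are shown because these neighbours had the highest mean TPM of the 33 genes, although Ppbp was not separated from Fermt3. Capitals mark a match to the ETS-type letters AGGAAG on either strand, and the Ppbp stretch holds none.
Pf4: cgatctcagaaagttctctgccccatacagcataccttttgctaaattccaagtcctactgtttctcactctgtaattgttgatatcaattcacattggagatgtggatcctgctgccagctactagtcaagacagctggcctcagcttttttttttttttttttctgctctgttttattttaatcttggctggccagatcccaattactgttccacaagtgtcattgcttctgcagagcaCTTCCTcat
Ppbp: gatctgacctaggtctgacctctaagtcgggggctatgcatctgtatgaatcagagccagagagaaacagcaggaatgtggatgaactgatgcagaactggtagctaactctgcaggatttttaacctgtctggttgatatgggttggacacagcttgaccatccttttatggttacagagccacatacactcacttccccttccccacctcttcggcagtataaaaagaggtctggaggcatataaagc

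Other CXC chemokine genes of the same cluster were low in both pools, and all but Cxcl5 stayed below 1 TPM. Cxcl5, on the far side of Ppbp, had 1.22 and 2.37 TPM from 49 and 83 estimated counts. Cxcl3 had 0.20 and 0.05 TPM, Cxcl1 0.63 and 0.10 TPM and Cxcl2 0.18 and 0.00 TPM, each from 14 counts or fewer. Cxcl15 had 0 counts in both libraries, where 3 counts, about the 95% upper limit for an observed 0, would amount to 0.0573 and 0.0657 TPM. High levels within this cluster were thus seen for Pf4 and Ppbp and not for the other 5 genes.

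The large adhesive proteins of the alpha granule covered a wide range. Thbs1, thrombospondin 1, a matrix-binding glycoprotein, had 65.3 and 76.8 TPM (71.0 ± 8.19, SD, n = 2) and, being long, the most estimated counts of any of the 33 genes, 9665 and 9901. Vwf, von Willebrand factor, which tethers platelets to collagen, had 24.6 and 20.2 TPM (22.4 ± 3.09). Mmrn1, multimerin 1, a carrier of coagulation factor V in platelets, had 11.4 and 15.2 TPM (13.3 ± 2.71). In TPM, replicate 1 was the lower pool for Thbs1 and Mmrn1 and the higher pool for Vwf. In estimated counts scaled by library size, the log2 ratio of replicate 1 over replicate 2 was -0.15 for Thbs1 and -0.36 for Mmrn1. For Vwf that ratio was 0.04, with an interval for counting error from -0.05 to 0.14. The pools were thus not separated for Vwf in counts. F13a1, the catalytic subunit of the fibrin-crosslinking factor XIII, had 5.60 and 7.33 TPM (6.47 ± 1.22).

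Selp, which encodes P-selectin, the granule membrane protein that activated platelets display for leukocytes, was the lowest of the 33 genes. It had 0.60 and 0.64 TPM from 49.2 and 44.1 estimated counts, so it was counted but stayed under 1 TPM in both pools. Its deposited posterior mean was 1.17 and 1.22 TPM, and the point estimate lay just below the credibility interval in both libraries (0.619 to 1.85 TPM in replicate 1 and 0.659 to 1.95 TPM in replicate 2). By the posterior mean, all 33 genes would pass 1 TPM. No gene stood between Selp and P2ry12, at 1.49 and 1.80 TPM the lowest gene above the threshold.

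Subunits of shared receptors were not present at equal levels. Itga2b, the alpha IIb integrin chain and an early mark of the lineage, had 62.1 and 61.7 TPM (61.9 ± 0.233, SD, n = 2). Its partner Itgb3, the beta 3 chain, had 12.5 and 13.02 TPM (12.8 ± 0.339). Itga2b was therefore 4.81-fold above Itgb3 in gene-level TPM (mean log2 ratio 2.27 ± 0.04), in the same order in each pool. Its coding transcripts, however, held 56.9% and 63.3% of the Itga2b TPM, against all of the Itgb3 TPM, and in estimated counts, which are not divided by length, the log2 ratio was 0.95. The beta 3 chain also pairs with the alpha V chain, and Itgav had 29.1 and 27.6 TPM (28.3 ± 1.11). Both alpha chain genes were thus above the beta chain gene in gene-level TPM. In estimated counts Itgav (1619 and 1556) was below Itgb3 (1841 and 1668) in both pools.

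Glycoprotein Ib-IX-V, the receptor for von Willebrand factor, is built from the products of Gp1ba, Gp1bb, Gp9 and Gp5. Gp1ba, which carries the ligand-binding site, was the lowest of them with 11.7 and 13.2 TPM (12.4 ± 1.08, SD, n = 2). Gp1bb had 33.5 and 39.3 TPM (36.4 ± 4.13), Gp9 had 28.9 and 30.6 TPM (29.7 ± 1.17), and Gp5 had 23.8 and 30.2 TPM (27.0 ± 4.50). Gp1bb was 2.91-fold above Gp1ba (log2 ratio of Gp1ba over Gp1bb -1.54 ± 0.04) and Gp9 was 2.39-fold above Gp1ba (log2 ratio 1.25 ± 0.07), beyond the spread between pools. Gp5 was 1.35-fold below Gp1bb, while Gp9 and Gp1bb were not separated (log2 ratio -0.29 ± 0.11), because their credibility intervals overlapped in replicate 1. These are orders per length: in raw estimated counts, which favour long transcripts, the log2 ratio of Gp5 over Gp1bb was 0.59 and that of Gp9 over Gp1ba was -0.59, the opposite signs, and that of Gp1ba over Gp1bb was -0.23. Part of the Gp1bb value cannot be assigned with certainty, because its exons overlap those of Sept5 on the same strand (3.34 and 3.11 TPM).

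The 4 genes are compact, with no more than 2 exons in their coding transcripts, as is P2ry1 among the rest, a structure found in 14.8% of protein-coding genes. The upstream stretches of Gp1ba (chr11:70638872-70639121, plus strand) and Gp5 (chr16:30310782-30311031, minus strand) are shown, in GRCm38.p6 and from RefSeq, because they hold the most letter matches to GATA-type and ETS-type motifs among the receptor subunits printed here. Capitals mark matches on either strand, and no match shares bases with another. The GATA type was AGATAA, or with a closing G AGATAG, or with an opening T TGATAA, or with both changes TGATAG. The ETS type was AGGAAG, or with an opening C in its place CGGAAG. In Gp1ba the GATA-type matches begin 104, 51 and 23 bases before the start and the ETS-type match 16 bases before it. In Gp5 the GATA-type matches begin 115, 93 and 77 bases before the start and the ETS-type match 48 bases before it. Gp9 (chr6:87777820-87778069, plus strand) is added as the subunit with an ETS-type match alone, 16 bases before its start.
Gp1ba: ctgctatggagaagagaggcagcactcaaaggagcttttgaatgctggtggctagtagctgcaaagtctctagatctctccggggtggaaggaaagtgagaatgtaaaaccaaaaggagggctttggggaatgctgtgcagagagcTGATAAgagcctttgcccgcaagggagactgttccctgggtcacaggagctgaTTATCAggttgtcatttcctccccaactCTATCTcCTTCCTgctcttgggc
Gp5: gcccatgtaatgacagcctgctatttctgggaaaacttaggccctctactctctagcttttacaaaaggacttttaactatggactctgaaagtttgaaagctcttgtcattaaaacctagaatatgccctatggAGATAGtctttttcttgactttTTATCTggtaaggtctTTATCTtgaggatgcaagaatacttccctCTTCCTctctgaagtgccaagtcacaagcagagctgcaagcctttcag
Gp9: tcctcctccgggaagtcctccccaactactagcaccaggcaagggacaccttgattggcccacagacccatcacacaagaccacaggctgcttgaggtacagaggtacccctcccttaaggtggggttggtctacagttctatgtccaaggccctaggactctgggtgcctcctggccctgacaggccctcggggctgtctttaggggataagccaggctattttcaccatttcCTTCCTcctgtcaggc

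**Figure D2:**
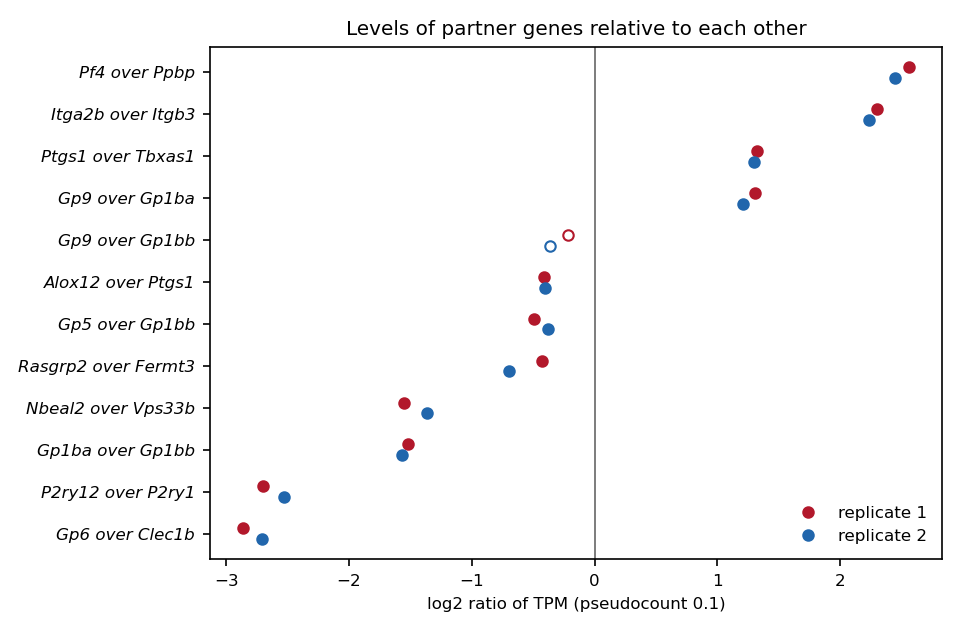
Log2 ratio of TPM (pseudocount 0.1) for 12 pairs of genes that work together, with 1 point per pool (red, replicate 1; blue, replicate 2). Filled points mark the 11 pairs whose order was the same in both pools with separate credibility intervals, and open points mark Gp9 over Gp1bb, which was not ordered.

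Such matches are common in promoters at large. Of the 33 genes, 26 had an entry in the RefSeq promoter table, with windows of 250 bases before and 50 after the start. A GATA-type match was present in 8 of the 26 windows, or 30.8%, beside 33.04% of the 27025 windows in the table. An ETS-type match was present in 17 of them, or 65.4%, beside 49.8%. Both were present in 4 windows, those of Pf4, Gp1ba, Gp1bb and Gp5, or 15.4% beside 14.4%. In Pf4 the ETS-type match begins 9 bases before the start, and the GATA-type match lies 37 bases after it, outside the printed stretch. The windows of Ppbp, Treml1, P2ry1, Alox12 and Plek held neither.

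The remaining surface proteins ran from abundant to scarce. Cd9, a tetraspanin that organises receptors in the membrane, had 86.0 and 89.5 TPM (87.8 ± 2.43, SD, n = 2). Clec1b, the podoplanin receptor CLEC-2, had 30.6 and 31.7 TPM (31.1 ± 0.757), and Treml1, an alpha granule receptor that binds fibrinogen, had 25.3 and 24.2 TPM (24.7 ± 0.827). Gp6, the main collagen receptor of platelets, had 4.12 and 4.76 TPM (4.44 ± 0.453) from 112 and 113 counts. Clec1b and Gp6 signal through related tyrosine motifs, and Gp6 was 6.89-fold below Clec1b (log2 ratio of Gp6 over Clec1b -2.78 ± 0.11). Fcer1g, the signalling chain that Gp6 needs at the surface and that other blood cells also use, was far more abundant than Gp6, with 63.8 and 57.1 TPM (60.4 ± 4.76). Same-strand overlap touches Clec1b too, whose exons overlap those of Clec9a, at 0.53 and 0.46 TPM.

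Receptors for nucleotides and thromboxane were the lowest role group, with a median of 8.34 ± 0.301 TPM over 4 genes (SD, n = 2). P2rx1, an ATP-gated cation channel, had 13.4 and 15.2 TPM (14.3 ± 1.22), and P2ry1, the ADP receptor that raises calcium, had 10.3 and 10.9 TPM (10.6 ± 0.453). Tbxa2r, the thromboxane receptor, had 6.01 and 6.22 TPM (6.12 ± 0.148). P2ry12, the ADP receptor that lowers cyclic AMP and the target of clopidogrel, was the scarcest of them with 1.49 and 1.80 TPM (1.65 ± 0.219) from 82 and 86 counts. The P2ry12 level was 6.14-fold below that of P2ry1 (log2 ratio of P2ry12 over P2ry1 -2.62 ± 0.12; -3.23 in estimated counts), in both pools. The P2ry12 exons overlap those of Med12l on the opposite strand, at 2.61 and 2.81 TPM, and the sources used here do not say whether the counting used strand.

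Enzymes that turn arachidonic acid into platelet mediators were all measured at moderate levels that hardly moved between pools in deposited TPM. Ptgs1, the cyclooxygenase that aspirin inhibits in platelets, had 22.8 TPM in replicate 1 and 22.8 TPM in replicate 2 (SD 0.0212, n = 2). With TPM rescaled over mouse genes alone, Ptgs1 had 26.7 and 25.7 TPM (SD 0.715), so so small an SD depends on the scale. Alox12, the platelet lipoxygenase, had 17.1 and 17.3 TPM (17.2 ± 0.0990), and Tbxas1, thromboxane synthase, had 9.07 and 9.24 TPM (9.16 ± 0.120). Ptgs1 was thus 2.47-fold above Tbxas1, the next enzyme of the thromboxane route (log2 ratio 1.31 ± 0.02), and 1.32-fold above Alox12, which takes the same substrate (log2 ratio of Alox12 over Ptgs1 -0.40 ± 0.01).

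Genes of signalling to integrins and the cytoskeleton were the highest role group, with a median of 64.5 ± 1.35 TPM over 4 genes (SD, n = 2). Fermt3 encodes kindlin-3, which binds integrin beta tails, and had 107 and 126 TPM (116 ± 13.4). Rasgrp2, the calcium-regulated activator of Rap1, had 79.6 and 77.8 TPM (78.7 ± 1.29), and was 1.47-fold below Fermt3. The log2 ratio of Rasgrp2 over Fermt3 was -0.56 ± 0.19, and -2.37 in estimated counts. A short transcript of 535 bases, Rasgrp2-205, held 52.5% and 57.1% of the Rasgrp2 TPM, so this level depends on how reads were assigned to it. Plek, pleckstrin, a major substrate of protein kinase C in platelets, had 45.7 and 53.2 TPM (49.4 ± 5.30). Bin2, a membrane-curving BAR protein of blood cells, had 47.5 and 45.6 TPM (46.5 ± 1.39). These genes are also used by leukocytes, and levels of leukocyte markers are given further on. Fermt3 and Plek overlap exons of Trpt1 and Cnrip1 on the opposite strand, at 2.82 and 3.66 TPM for Trpt1 and 9.90 and 9.54 TPM for Cnrip1.

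Genes for building platelets and their granules came with a median of 18.5 ± 0.0247 TPM over 4 genes (SD, n = 2). Tubb1, the beta tubulin particular to the platelet's marginal microtubule band, had 33.2 and 41.8 TPM (37.5 ± 6.10). Rab27b, a small GTPase of dense granule formation and release, had 18.8 and 20.4 TPM (19.6 ± 1.14). Vps33b, needed for alpha granules, had 18.3 and 16.8 TPM (17.5 ± 1.09), and its binding partner Vipas39 had 16.5 and 18.4 TPM (17.5 ± 1.39). The partners thus had the same mean level, though replicate 1 was higher for Vps33b and lower for Vipas39. Nbeal2, whose loss in people causes grey platelet syndrome, had 6.17 and 6.44 TPM (6.31 ± 0.191) and was 2.75-fold below Vps33b (log2 ratio of Nbeal2 over Vps33b -1.46 ± 0.13; -0.57 in estimated counts). Fli1, an ETS transcription factor that drives many platelet genes, had 18.5 TPM in replicate 1 and 18.6 TPM in replicate 2 (18.5 ± 0.0212). Rescaled over mouse genes alone, it had 21.7 and 20.9 TPM (SD 0.577).

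Set in order of mean TPM, the 33 genes formed a gradual series more than separate tiers. Of the 32 steps between neighbours in that order, 5 were larger than the spread, with the same order in both pools and credibility intervals that did not overlap. Those steps were Pf4 over Ppbp, Fermt3 over Cd9, Itga2b over Plek, Tbxas1 over F13a1 and Gp6 over P2ry12. The other 27 neighbours were not separated, P2ry12 and Selp among them. By level, 17 of the 33 genes were above 75% of protein-coding genes and 6 above 90%. Their genes were a little longer and had more exons than usual, with a median span of 20512 bases and 9 exons, beside 17727 bases and 7 exons over protein-coding genes.

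The genes are spread over 15 chromosomes, with 6 each on chromosomes 6 and 11. Beside Ppbp and Pf4, the closest neighbours were Cd9 and Vwf on chromosome 6, 52.0 kb apart. Alox12 and Gp1ba on chromosome 11 were 384 kb apart, and Rasgrp2 and Fermt3 on chromosome 19 were 584 kb apart. Among these pairs of neighbours only the levels of Pf4 and Ppbp were both above 100 TPM.

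The pools gave close to the same level for nearly all of these genes. Differences between pools are stated as log2 of replicate 1 over replicate 2 in estimated counts scaled by library size, each with a 95% exact binomial interval that covers counting error only. No gene of the 33 was 2-fold apart, beside 3.07% of the 14418 protein-coding genes that averaged at least 10 counts. The median was 0.00 over the 33 genes and -0.01 over those protein-coding genes, and 17 of the 33 ratios were positive. The interval lay above 0 for 4 genes, or 12.1%, beside 17.5% of protein-coding genes, and below 0 for 7 genes, or 21.2%, beside 23.2%. These shares depend on how many counts a gene has, and the 2 sets were not matched for counts. The SD of the log2 ratio was 0.14 over the 33 genes and 0.20 over 11522 protein-coding genes with 100 or more counts. For the other 22 genes the interval covered 0.

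**Figure D3:**
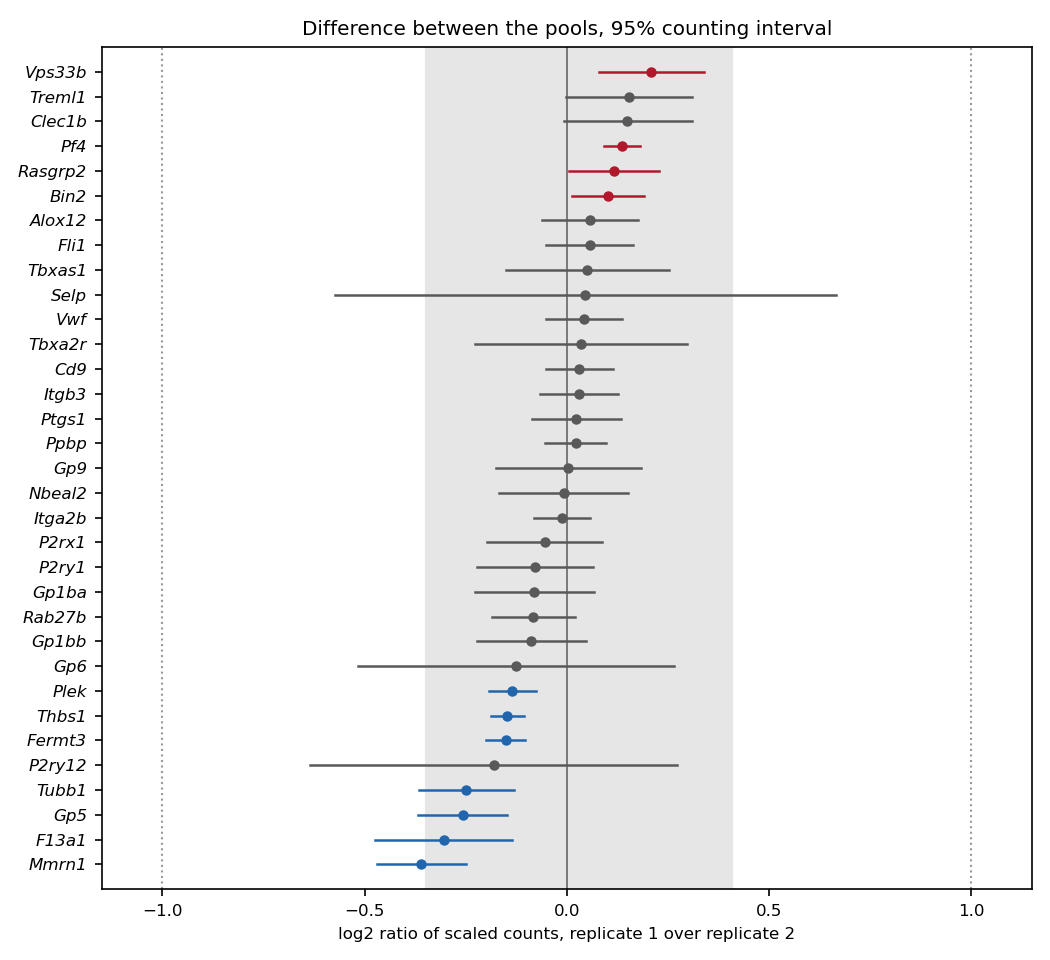
Log2 ratio of scaled counts, replicate 1 over replicate 2, for the 33 genes, with 95% exact binomial intervals (counting error only). Red marks the 4 genes with an interval above 0, blue the 7 with an interval below 0; the grey band is the central 95% of 11522 well-counted protein-coding genes (-0.35 to 0.41), and the dotted lines mark 2-fold.

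The genes that were higher in replicate 1 beyond counting error were Vps33b (log2 ratio 0.21, interval 0.08 to 0.34), Pf4 (0.14, interval 0.09 to 0.18), Rasgrp2 (0.12, interval 0.01 to 0.23) and Bin2 (0.10, interval 0.01 to 0.19). Those lower in replicate 1 were Mmrn1 (-0.36, interval -0.47 to -0.25), F13a1 (-0.30, interval -0.47 to -0.14), Gp5 (-0.26, interval -0.37 to -0.15) and Tubb1 (-0.25, interval -0.37 to -0.13), with smaller differences for Fermt3 (-0.15), Thbs1 (-0.15) and Plek (-0.13). Of the 33 ratios, 32 lay within the central 95% of 11522 protein-coding genes with 100 or more counts, which ran from -0.35 to 0.41, and Mmrn1 was just outside. The genes on each side came from several roles, and the medians of the role groups ran from -0.07 for the nucleotide and thromboxane receptors to 0.06 for Fli1 alone. Heart muscle genes, by contrast, had a median log2 ratio of 1.63, and all 10 were higher in replicate 1. Their part in the levels of the 33 genes was not tested.

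In most of the genes the same transcript led in both pools. Taken by share of the gene's TPM, the leading transcript was the same for 29 of the 32 genes above 1 TPM. Of the 32, 9 had a single transcript in the tables and could only agree. Among the 23 with several, the leading transcript was the same for 20. No such share over all genes is given here. Of those 23, 7 had a transcript at 90% or more of TPM in both pools. Among these, Plek-202, Itgb3-201 and F13a1-201 took all of their gene's TPM in both libraries, and Thbs1-201 took 99.8% and 99.5%. Among the 6 granule and released proteins above 1 TPM, Vwf was the exception to a single dominant form.

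In 3 genes the leading transcript changed between pools. In Clec1b, Clec1b-201 led in replicate 1 with 59.1% of TPM and Clec1b-203 in replicate 2 with 51.7%. In P2ry1, P2ry1-203 led in replicate 1 with 39.6% and P2ry1-201 in replicate 2 with 45.4%. In P2ry12, P2ry12-201 had 51.9% in replicate 1 and P2ry12-202 had 51.9% in replicate 2, close to an even split each time. Ranked by estimated counts in place of TPM, an alternative added after the values were seen, the leading transcript was the same in all 32 genes. Of these, 9 had a single transcript and could only agree.

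Shares of TPM and shares of counts ranked transcripts differently in 6 genes, Vwf, Gp1bb, Clec1b, P2ry1, P2ry12 and Rasgrp2, in at least 1 pool. Rasgrp2 had 24 transcripts in the tables, and Rasgrp2-205, only 535 bases long, took 52.5% and 57.1% of its TPM. Rasgrp2-224, with 2192 bases, took 11.5% and 13.3% of the TPM but 34.1% and 39.5% of the estimated counts. In Vwf, a processed transcript of 456 bases, Vwf-209, led with 38.3% and 25.5% of TPM. A transcript of 8817 bases with no entry in the newer annotation took 24.7% and 17.3% of TPM and 69.6% and 39.0% of counts. Vwf-203, of nearly the same length with 8834 bases, took 0.03% and 15.4% of TPM and 0.07% and 34.8% of counts. The lower share of the 8817-base transcript in replicate 2 thus came with a higher share of Vwf-203. Gp1bb-202, with 1847 bases, had 41.9% and 38.3% of TPM and 69.8% and 66.6% of counts, against the shorter Gp1bb-201 with 58.1% and 61.7% of TPM. Such differences follow from the units, since TPM divides by length and counts do not, so short transcripts weigh more in TPM in any gene.

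Itga2b-201 held 56.9% and 63.3% of the TPM of Itga2b and 86.5% and 89.6% of its counts. Nbeal2-210, with 8803 bases, held 35.4% and 37.6% of TPM and 72.6% and 75.5% of counts. Bin2-207 held 79.0% of TPM in replicate 1 and 95.3% in replicate 2, among the wider gaps between pools. The shares of Ptgs1-201 (84.1% and 88.5%), Alox12-201 (84.6% and 89.2%) and Rab27b-201 (79.9% and 78.9%) were closer between pools, while Gp1ba-201 held 83.7% and 73.4%.

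**Figure D4:**
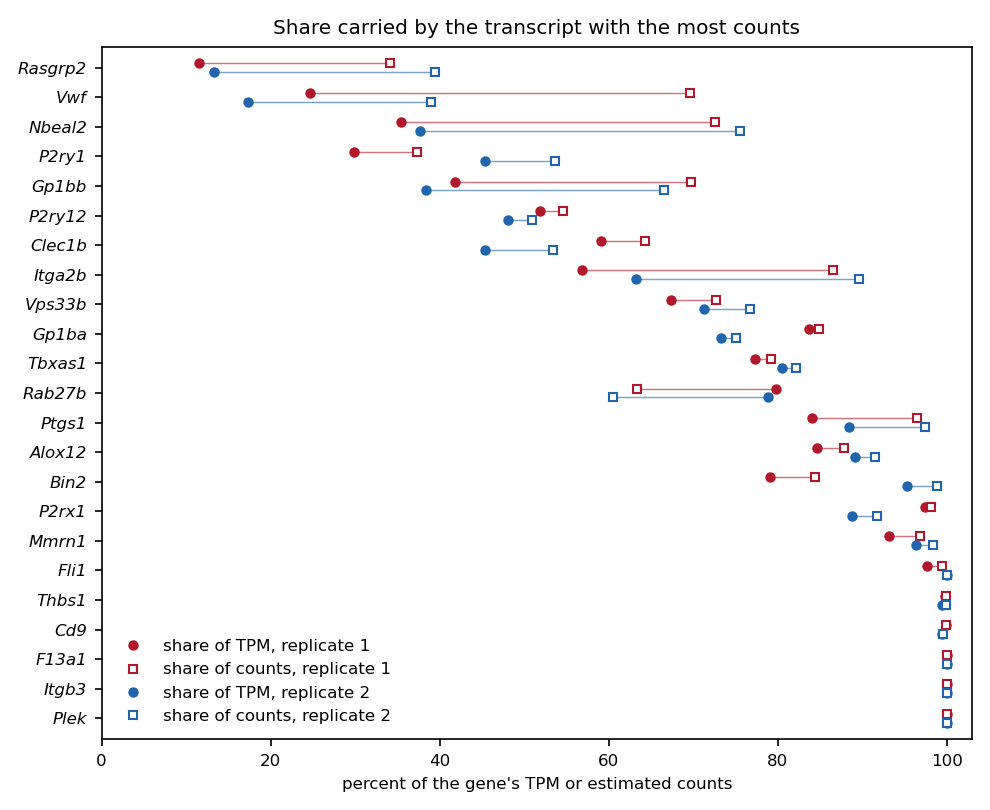
Percent of a gene's TPM (filled circles) and of its estimated counts (open squares) carried by the transcript with the most counts, for the 23 genes above 1 TPM with several transcripts (red, replicate 1; blue, replicate 2). Rasgrp2, Vwf, Nbeal2, Gp1bb and Itga2b show gaps of more than 20 percentage points between the measures in both pools, and Plek, Itgb3 and F13a1 none.

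Regulators and hormone signals of the lineage were measured from lists chosen by known function. All 21 megakaryocyte transcription factors passed 1 TPM in both pools, with a median of 25.7 ± 2.69 TPM (SD, n = 2). The highest were Lmo2 (146 and 149 TPM), a bridging factor, Gata1 (120 and 130 TPM), the central red cell and megakaryocyte factor, and Gfi1b (109 and 122 TPM), a repressor of the same lineages. Red cell precursors also use these factors, and the erythroid list had a median of 175 ± 20.2 TPM, so their level was not assigned to 1 lineage. Thpo, which encodes thrombopoietin and is expressed by liver cells, had 3.07 and 3.19 TPM (3.13 ± 0.0849). Of the 17 genes of the thrombopoietin signalling list, 16 passed 1 TPM with a median of 11.8 ± 0.198 TPM, led by the adaptor Shc1 (57.6 and 58.6 TPM) and the transcription factors Stat3 (43.9 and 42.3 TPM) and Stat5b (34.7 and 39.9 TPM). Asgr1, of a hepatic receptor that clears aged platelets, was below 1 TPM (0.50 and 0.33). Asgr2, listed beside it, passed with 3.31 and 4.63 TPM from 109 and 117 counts.

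Partners in receptor signalling, secretion and cell shape were also broadly present. Of 31 genes for integrin activation and receptor signalling, 30 passed, with a median of 14.2 ± 0.219 TPM (SD, n = 2). Rap1b, the small GTPase that Rasgrp2 activates in platelets, led this list with 251 and 309 TPM, followed by Gnai2 (178 and 174 TPM) and Itgb1 (148 and 177 TPM), and Itga2, the alpha chain of a collagen-binding integrin, missed the threshold with 0.92 and 1.00 TPM. Of 36 genes for granule formation and release, 34 passed, with a median of 14.4 ± 1.41 TPM, led by Sparc (249 and 234 TPM), Vamp8 (209 and 213 TPM) and Cd63 (181 and 183 TPM). Lyst, a regulator of lysosome-related granules, did not pass (0.91 and 0.81 TPM). All 20 proplatelet cytoskeleton genes passed, with a median of 139.5 ± 6.22 TPM, and Pfn1 (1807 and 1840 TPM), Cfl1 (1617 and 1682 TPM) and Tmsb4x (1417 and 1391 TPM), which most cells of the organ express, were highest.

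Several of the 33 genes are known in other cells of the fetal liver, and those cells were represented. Vwf, Selp, Thbs1 and Mmrn1 are also made by endothelial cells, whose 15 markers all passed 1 TPM with a median of 14.96 ± 0.226 TPM (SD, n = 2) and a sum of 376 and 370 TPM, led by Egfl7 (139 and 130 TPM). F13a1 and Tbxas1 are also made by macrophages, for which 12 of 14 markers passed, with a median of 12.3 ± 1.06 TPM and a sum of 301 and 319 TPM, led by Lyz2 (68.5 and 77.6 TPM), while Cd163 was at 0.02 and 0.00 TPM and Mpeg1 at 0.62 and 0.94 TPM. Of 13 mast cell and granulocyte markers, 9 passed, with a sum of 477 and 543 TPM, led by Mpo (146 and 167 TPM), while Ctsg was at 0.90 and 0.29 TPM and the mast cell and basophil genes Ms4a2, Cma1 and Mcpt8 were at 0.15 TPM or less. The mast cell gene Cpa3 passed, with 1.72 and 2.78 TPM from 60 and 74 counts. All 10 stem and progenitor markers passed, with a median of 4.75 ± 0.191 TPM and a sum of 92.6 and 109 TPM, led by Kit (36.0 and 46.8 TPM). No marker in these lists had 0 counts in both libraries. The part of these cells in the levels of the shared genes was not tested, since whole tissue was sequenced. Pf4, Itga2b, Gp9, Gp1bb, Gp6 and Tubb1, taken from the 33 genes as megakaryocyte markers, were above 1 TPM in both pools. So were 56.6% of protein-coding genes, while Selp, also of the 33, was below 1 TPM (0.60 and 0.64).

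**Figure D5:**
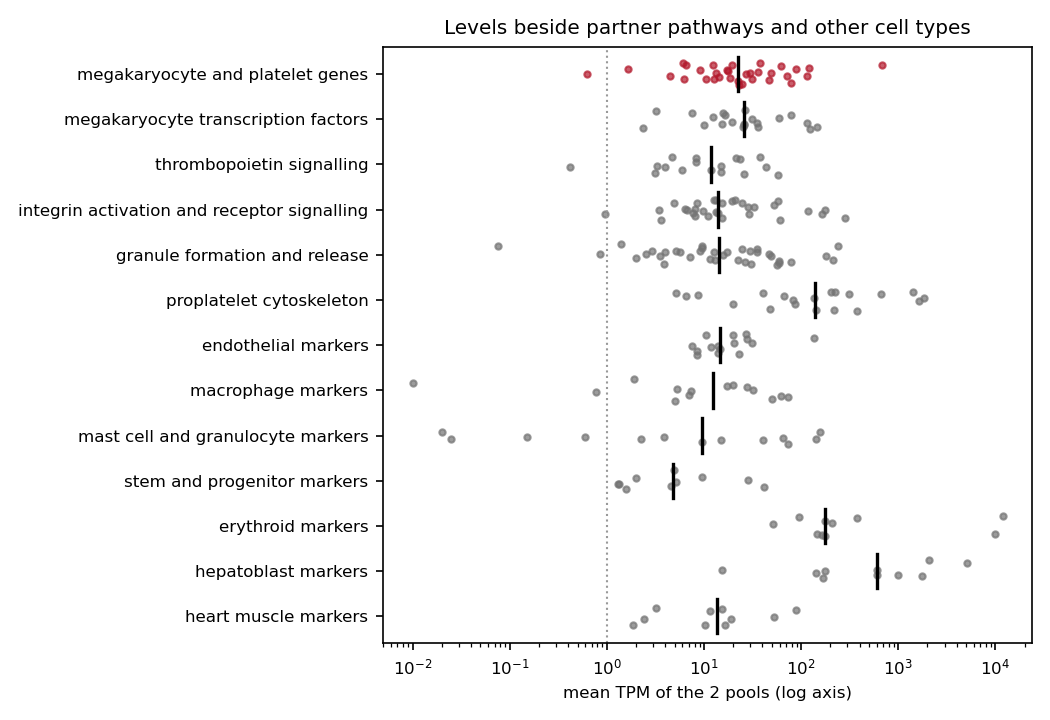
Mean TPM of the 2 pools (log axis) for the 33 megakaryocyte and platelet genes (red) and for each of 12 lists of partner genes or markers of other cells (grey), with 1 point per gene and a vertical bar at the list's median. The dotted line marks 1 TPM; hepatoblast and erythroid markers lie furthest right by median, and stem and progenitor markers furthest left.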

How the data were processed

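Total RNA-seq of 2 pooled liver samples was used. For each library the authors deposited 2 tables, of genes and of transcripts, with estimated counts, TPM, FPKM and posterior means with a credibility interval whose level is not given. The transcript tables hold the deposited isoform percent, a transcript's percent of its gene's TPM. Reads were assigned on mm10 with GENCODE release M4, per the notes deposited with the tables. The sources used here do not give the aligner, the quantifier, their versions or the use of strand.

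The deposited TPM were used for levels. Symbols and coordinates came from GENCODE release M21 on GRCm38, matched on the identifier without its version. For ratios between pools, estimated counts of mouse genes were scaled with TMM factors (edgeR 4.0.16, R 4.3.3), with DESeq2 1.42.0 size factors as an alternative, and 0.5 was added. The script was tested on simulated data. Genes of a pair were called ordered only if the order held in both libraries, the credibility intervals were separate in each, and the mean log2 ratio was larger than the gap between libraries. The pools are the replicates, so an SD covers 2 pools; intervals cover counting error only.

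The 33 genes, the lists and the pairs were chosen with earlier results of these data known. Named genes are the 33, up to 3 of the highest of each list, direct partners, and genes that overlap or neighbour them. List genes below 1 TPM, and Asgr2 and Cpa3 beside them, were added after their values were seen. Some list genes are not reported here. Of the 33 genes, 7 have no entry in the RefSeq promoter table. The stretch before Gp1bb is not shown.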

Additional observations from a re-analysis of the deposited data

How the results depend on the processing

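No paired analysis was possible because there is 1 group. With TPM rescaled over mouse genes alone, the median of the 33 genes was 24.8 TPM in place of 21.6, and in FPKM it was 15.9 (without 1 replicate, 20.4 to 22.8). The median log2 ratio between pools was -0.063 on the TPM scale in place of 0.0039, where the median of all protein-coding genes was -0.09. With the ETS-type motif limited to CGGAAG, 1 promoter in place of 4 held both motifs. At a threshold of 5 TPM, 4 stem and progenitor markers passed in place of 10, and 30 of the 33 genes in place of 32. In estimated counts, which are not divided by length, the log2 ratio of Gp5 over Gp1bb was 0.59 in place of -0.44 and that of Gp9 over Gp1ba was -0.59 in place of 1.25. Among the summary results, 89 alternatives kept the value within the stated limits and 5 moved it. Among single genes and pairs, 289 kept it, 64 moved it and 2 reversed it. On estimated counts no pair kept its log2 ratio within the limits. Besides the reversed pairs, it moved for Gp1ba over Gp1bb (-1.54 to -0.23), Nbeal2 over Vps33b (-1.46 to -0.57) and Itga2b over Itgb3 (2.27 to 0.95). It also moved for Pf4 over Ppbp (2.50 to 1.49), P2ry12 over P2ry1 (-2.62 to -3.23) and Rasgrp2 over Fermt3 (-0.56 to -2.37). The same held for Gp9 over Gp1bb (-0.29 to -0.82) and Gp6 over Clec1b (-2.78 to -2.54). Ptgs1 over Tbxas1 (1.31 to 1.73) and Alox12 over Ptgs1 (-0.40 to -0.21) moved too. With 2 pools, spread is poorly known, and genes under about 100 counts (Selp and P2ry12) have wide counting intervals.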

Other observations

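Thrombin receptors were picked out from the receptor signalling list after their values were seen. F2r, the thrombin receptor found in many tissues, had 109 and 126 TPM in replicates 1 and 2 (118 ± 12.2, SD, n = 2). F2rl2, a thrombin-binding receptor of mouse platelets, had 22.5 and 26.6 TPM (24.5 ± 2.89), and F2rl3, the receptor that carries the thrombin signal in mouse platelets, had 6.54 and 6.77 TPM (6.66 ± 0.163). F2rl3 was the lower of the platelet receptors in both pools.

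Also picked after their values were seen, Mpig6b and Erg differed more between pools than any of the 33 genes. Mpig6b, an inhibitory receptor of megakaryocytes, had 8.55 and 6.73 TPM from 383 and 229 counts, a log2 ratio of 0.63. Erg, an ETS factor of stem cells, megakaryocytes and endothelium, had 2.91 and 1.78 TPM from 120 and 72 counts, a log2 ratio of 0.62.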
